A study of Homo sapiens with 96 samples.

Results

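RSPH3 encodes radial spoke head 3, a protein of the radial spokes that connect microtubules inside motile cilia. K562 is a cell line derived from a human chronic myeloid leukemia, and the list of its A-to-I edited positions holds 29 sites in this gene among 4092 sites with editing levels. Members were chosen by position alone, as every listed site on the minus strand of chromosome 6 between the start and the end of the gene (chr6:158972871-159000202, GRCh38), and the gene was selected on the number of its listed sites, so that number is a description and not a result. All 29 lay in the 3′ UTR, in exon 8 of the 8 exons of the transcript RSPH3-201, and they made up 10.3% of the 282 listed 3′ UTR sites with levels. A longer list of sites was not used here, and the nearest listed site elsewhere on chromosome 6 was 700935 bases away.

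In A-to-I editing, enzymes of the ADAR family deaminate adenosine to inosine in double-stranded RNA, and sequencing reads inosine as G. In 3′ UTRs the double strand usually forms between inverted copies of a sequence in the same transcript, so edited adenosines tend to lie in groups. The editing level is the fraction of reads with G at a site, here the average that the authors took over the prediction methods that found the site in a sample. A site is called recorded in a sample where its level is above 0; a level of 0 means that no method gave a level there, and an unedited site and a site without enough reads cannot be told apart. The read depth behind each level is unknown here, so levels of single samples carry no interval.

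The data came from total RNA of 96 K562 samples sequenced after removal of ribosomal RNA. They fall into 93 conditions, of which 90 have 1 sample, so most single conditions have no replicate check, and nothing says that replicates came from separate cultures. One sample was untreated, and 79 received drugs or the solvent DMSO: imatinib (BCR-ABL inhibitor), romidepsin (histone deacetylase inhibitor), etoposide (topoisomerase II inhibitor) or DMSO for 6 to 48 h; romidepsin for 3 or 6 h; rapamycin or Torin1 (mTOR inhibitors) for 3 or 6 h; a pretreatment with the ATR, ATM and DNA-PK inhibitors AZ-20, KU-60019 and NU7441 together or with DMSO for 3 h, then Talazoparib (PARP inhibitor), SN-38 (topoisomerase I inhibitor), etoposide, Mirin (MRN inhibitor) or DMSO; etoposide, SN-38 or DMSO for 6 h followed by wash-out; and the transcription inhibitors actinomycin D or alpha-amanitin, alone or for 0 to 6 h after 6 h with DMSO or etoposide or, for actinomycin D, with Talazoparib, SN-38 or the alkylating agent cyclophosphamide. The other 16 samples were derivative lines given doxycycline, which switches on their transgene, or water: lines that overexpress AsiSI, Cas9 or LINE and lines with an shRNA knockdown of CSB, LIG3 or MRE11A. Among the pretreated samples, DMSO came second only after DMSO, so no sample received AZ-20, KU-60019 and NU7441 and then DMSO. The samples were grouped here into 10 library sets by internal identifiers in the study's tables, and the sets were named after their treatment. The labels do not say that a set was prepared or sequenced together. The set called lentiviral lines joins several kinds of identifier. The AsiSI line, which per the study was also made with a lentiviral vector, forms a set of its own. For the etoposide and romidepsin samples of the time course the editing list and the study's Sanger tables exchange the drug names, so those drugs are uncertain, and no test here sets them against each other.

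The 29 sites formed a pair of dense groups on the transcript. The upstream group held 19 sites within 132 bases (chr6:158974266-158974397), from base 3141 to base 3272 after the stop codon. The downstream group held 10 sites within 113 bases (chr6:158973371-158973483), from base 4055 to base 4167 after the stop codon. Between them were 782 bases with no listed site. The median distance from a site to the next was 5 bases in the upstream group and 7 bases in the downstream group, and 8 neighbouring pairs were directly adjacent adenosines. The longest run of adjacent listed adenosines had 3 bases.

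Both groups lay inside the arms of an inverted match of the 3′ UTR with itself. In a blastn search of the 4667 bases after the stop codon against their reverse complement, chr6:158974262-158974406 aligned with chr6:158973345-158973485 over 145 columns, with 84.8% of columns complementary and 776 bases between the arms. All 19 upstream sites were in the upstream arm and all 10 downstream sites were in the downstream arm. In the fold of 1162 bases predicted by RNAfold, 88.8% of the 286 arm bases were paired with the opposite arm. An inverted match is common among such groups: of 173 groups of at least 5 listed sites chained at up to 100 bases, RSPH3 included as 2 groups, 97.1% had at least 50% of their sites in an inverted match within 5000 bases. The search found 5 other inverted matches in the RSPH3 3′ UTR, none of which held a listed site. The authors had removed sites in annotated repeats before listing, and no repeat annotation was used here, so nothing can be read about editing in those matches.

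The sequences of 3 facing stretches are shown because they hold the most recurrent sites and the sites of highest level. They are written in the RNA sense, 5′ to 3′, from the minus strand of GRCh38, and capitals mark listed editing sites. Each upstream stretch is followed by the downstream stretch aligned against it, or the reverse where the named site is downstream.
Upstream bases around site 3144, chr6:158974384-158974404: ccagcauAgaAgaAAAugggu
Downstream bases facing them, chr6:158973347-158973366: accaauuucuucuauccuag
Upstream bases around site 3217, chr6:158974311-158974331: gcaAAAugcuAcauccccaac
Downstream bases facing them, chr6:158973416-158973436: guuggggaAgcAgcauuuugc
Downstream bases around site 4083, chr6:158973445-158973465: uuccauuAAaAguuauaaugg
Upstream bases facing them, chr6:158974282-158974302: ucaguaugacuuuuAAAggaa
The first stretch holds 5 listed sites in 21 bases and faces none. The 2 stretches after it face each other with 4 and 2 listed sites and 19 of 21 bases complementary. The last stretches hold 3 listed sites each.

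Sites are named below by their number of bases after the stop codon, with the position on chromosome 6 at first use. Site 3144 (chr6:158974394) was recorded in the most samples, 23 of 96, with levels from 0.111 to 0.75 and a median of 0.333. Site 3217 (chr6:158974321) followed with 22 samples, levels from 0.25 to 1 and a median of 0.631. Sites 3148 (chr6:158974390) and 3147 (chr6:158974391) were recorded in 17 samples each, with medians of 0.25 and 0.2. Site 4110 (chr6:158973428) was the most recurrent of the downstream group, with 15 samples, levels from 0.297 to 1 and a median of 0.69. The medians of sites 3217 and 4110 were thus the highest of all 29 sites, although the ranges of all 5 sites overlapped.

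Of the remaining sites recorded in at least 5 samples, the highest medians were 0.429 at site 4083 (chr6:158973455, 13 samples), 0.4 at site 4101 (chr6:158973437, 13 samples) and 0.333 at site 3252 (chr6:158974286, 11 samples). The lowest medians were 0.127 at site 4080 (chr6:158973458, 6 samples) and 0.167 at sites 3149 (chr6:158974389, 11 samples) and 3155 (chr6:158974383, 5 samples). At the ends of the cluster, site 3141 (chr6:158974397) had a median of 0.125 and site 4167 (chr6:158973371) a median of 0.143, with 3 samples each. Medians could differ between sites a few bases apart: site 4080 lay 3 bases from site 4083, and their medians were 0.127 and 0.429. These medians come from different samples, and 4 samples recorded both sites. In those, site 4080 ran from 0.0625 to 0.143 and site 4083 from 0.125 to 0.517. Site 4080 reached 0.708 in a sample that did not record site 4083.

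**Figure D1:**
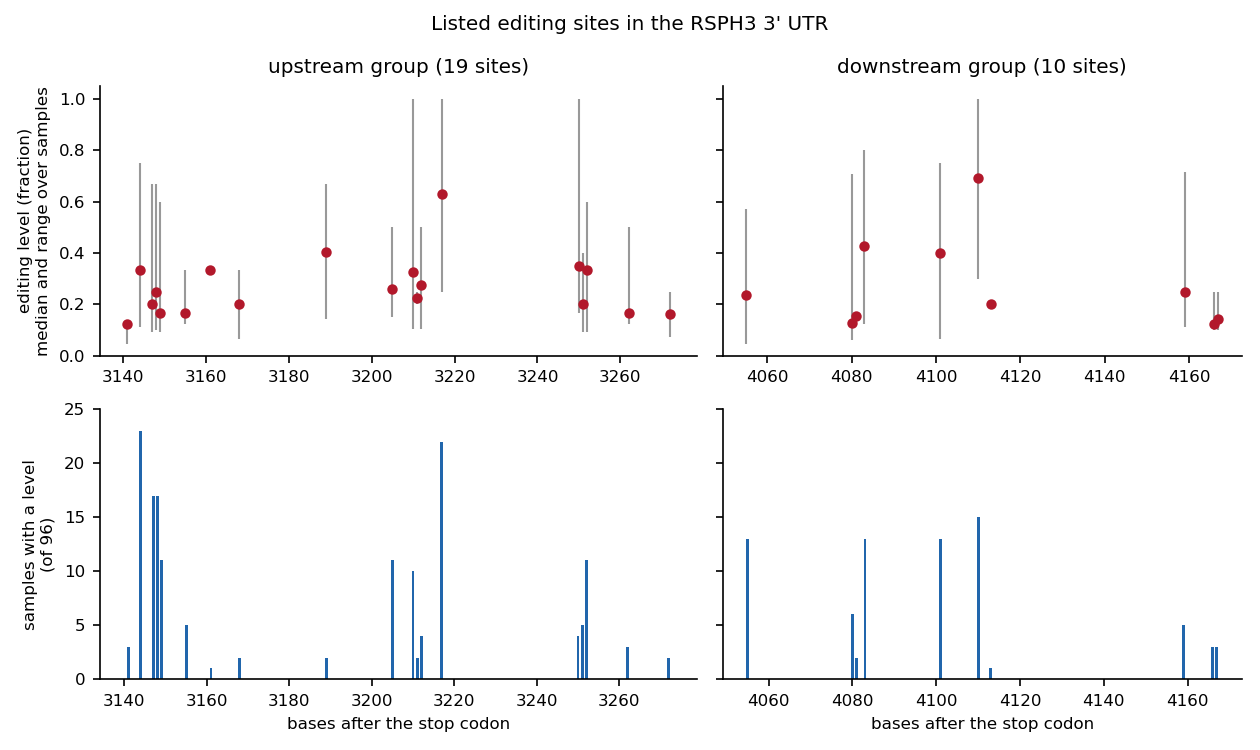
Editing level and recurrence of the 29 RSPH3 sites, plotted by bases after the stop codon. In the upper panels points are medians and lines the range of the level (fraction) over the samples in which the site was recorded; in the lower panels bars give the number of those samples of 96. Sites 3217 and 4110 have the highest medians, 0.631 and 0.69, and site 3144 the most samples, 23.

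Within samples that recorded a given pair of sites, sites 3217 and 4110 were mostly above the other named sites. Site 3217 was above site 3144 in 13 of 14 samples and equal to it in the other sample. It was above site 3147 in 14 of 14 samples and above site 3149 in 9 of 9. Against site 4083, however, site 3217 was higher in 3 of 6 samples and lower in 3. Site 4110 was above site 4101 in 7 of 8 samples, above site 4083 in 7 of 8 and above site 4080 in 6 of 6. Between sites 3217 and 4110 there was no constant order, with 3217 higher in 4 of 9 samples and 4110 higher in 5. These pairs were chosen for their levels, so their order is a description and no test was run on it.

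On the inverted match, sites 3217 and 4110 were the sites of the highest levels and lay 2 alignment columns apart, on opposite arms. Site 3217 faced a C, and site 4110 faced an A. Of the 29 listed adenosines 22 faced a U, 4 faced a C and 3 faced an A, whereas of the 70 other adenosines of the arms 62 faced a U. The 7 listed sites at a mismatch had medians from 0.167 to 0.69, and the 22 that faced a U had medians from 0.125 to 0.429, so the ranges overlapped. The listed sites were 37.3% of the 51 adenosines of the upstream arm and 20.8% of the 48 adenosines of the downstream arm.

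**Figure D2:**
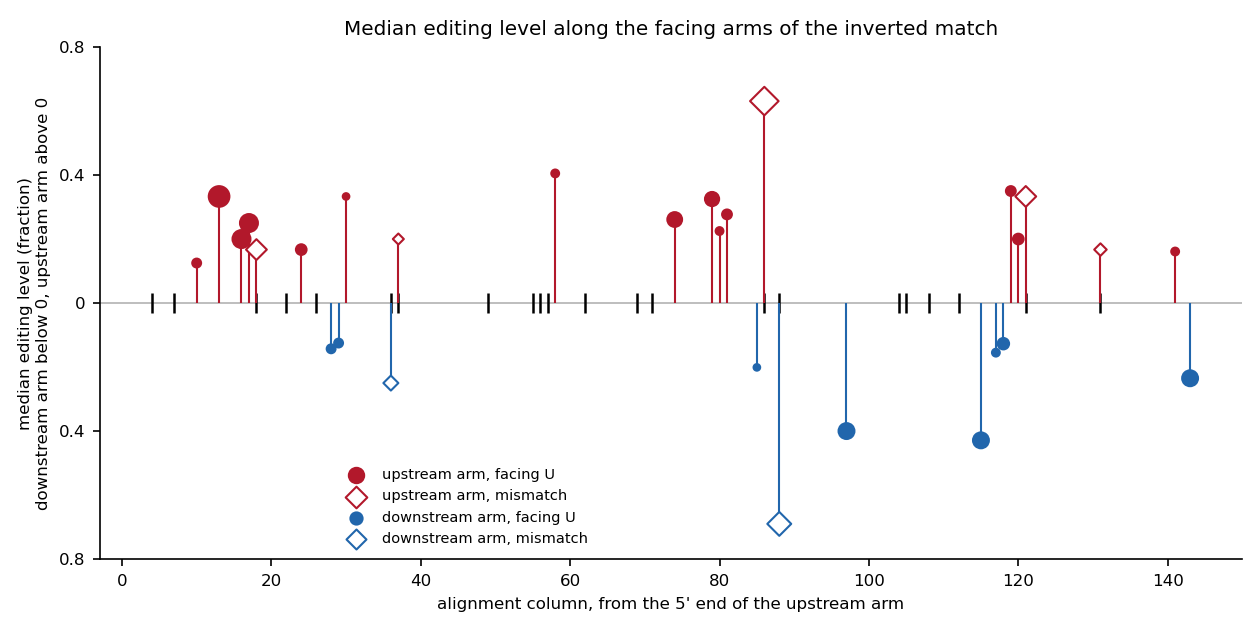
Median editing level (fraction) of the 29 sites along the 145 columns of the inverted match, with the upstream arm above 0 and the downstream arm below 0. Filled circles face a U and open diamonds face a mismatch, marker area grows with the number of samples, and black ticks mark columns without complementary bases. The highest medians, 0.631 and 0.69, stand close to each other on opposite arms, both at a mismatch.

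The base before an RSPH3 site was A in 15 of 29, U in 11, C in 3 and G in 0. Among all listed sites with levels the base before was G in 3.76%, so an absence of G from 29 sites is near that background. In the arms, 13 of the 70 adenosines that are not listed followed a G. The base after the site was G in 10 of the 29 listed adenosines (34.5%) and in 5 of the 70 others, against 44.3% of all listed sites with levels. An A before the site was more frequent in RSPH3 (51.7%) than among the other listed sites (33.6%), and a U less frequent (37.9% and 49.4%), with no test. ADAR enzymes are known to disfavour a G before the edited adenosine.

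All 29 sites were annotated in editing databases per the list, and all 29 had been detected by SPRINT, 21 of them also by RED-ML and 9 by REDItools. The 9 sites detected by all 3 methods were recorded in 11 to 23 samples, the 12 sites with 2 methods in at most 11 and the 8 sites found by SPRINT only in at most 5. All 3 methods had found 31% of the RSPH3 sites, against 25% of all listed sites with levels and 45.8% of the 253 other 3′ UTR sites. Of the 29 sites, 12 (41.4%) were recorded in at least 10 samples, against 14.1% of all listed sites and 41.5% of the other 3′ UTR sites. A maximum level above 0.5 was reached by 15 sites (51.7%), against 43.4% of all listed sites and 32% of the other 3′ UTR sites. The authors kept sites whose maximum level was above 0.2 over a larger set of 130 samples; in the 96 samples used here 2 of the 29 sites had no level above it, the lowest maximum being 0.125, and 2 were recorded in 1 sample only.

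Recording was sparse and uneven over samples. Of 2784 combinations of site and sample 229 (8.23%) had a level. In 49 samples no RSPH3 site was recorded, and in the other 47 the number ran from 1 to 16 with a median of 2. Exactly 1 site was recorded in 15 samples, and in 6 of these it was site 3144. At least 10 sites were recorded in 8 samples, which held 45.9% of all levels. Sites 4110 and 4055 (chr6:158973483) were recorded in all 8 of these samples, and 3 of the 29 sites in none of them.

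The 10 library sets differed in how many sites they recorded. Both samples of the romidepsin set had many, with 12 sites at 3 h and 14 at 6 h. In the kinase inhibitor pretreatment set (10 samples) the number ran from 0 to 16 with a median of 5.5, and in the actinomycin D alone set, which includes the untreated sample and 2 DMSO samples (5 samples), from 1 to 9 with a median of 7. The alpha-amanitin set (11 samples, among them DMSO 2 h and 2 samples at 0 h of alpha-amanitin) had from 0 to 13 with a median of 2, the actinomycin D chase (19 samples) from 0 to 10 with a median of 1, and the mTOR inhibitor set (4 samples) from 0 to 6 with a median of 1. The median was 0 in the wash-out set (9 samples, at most 2 sites), the time course (20 samples, at most 5), the lentiviral lines (12 samples, at most 1) and the AsiSI line (4 samples, none). Ranges overlapped between most sets. The number of other listed sites with a level also differed, with set medians from 62.5 in the lentiviral lines to 319 in the kinase inhibitor pretreatment set, and the time course had a median of 290 other sites beside its median of 0 RSPH3 sites. Editing at a lower level, less RSPH3 RNA and shallower coverage of the 3′ UTR cannot be told apart in these sets.

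**Figure D3:**
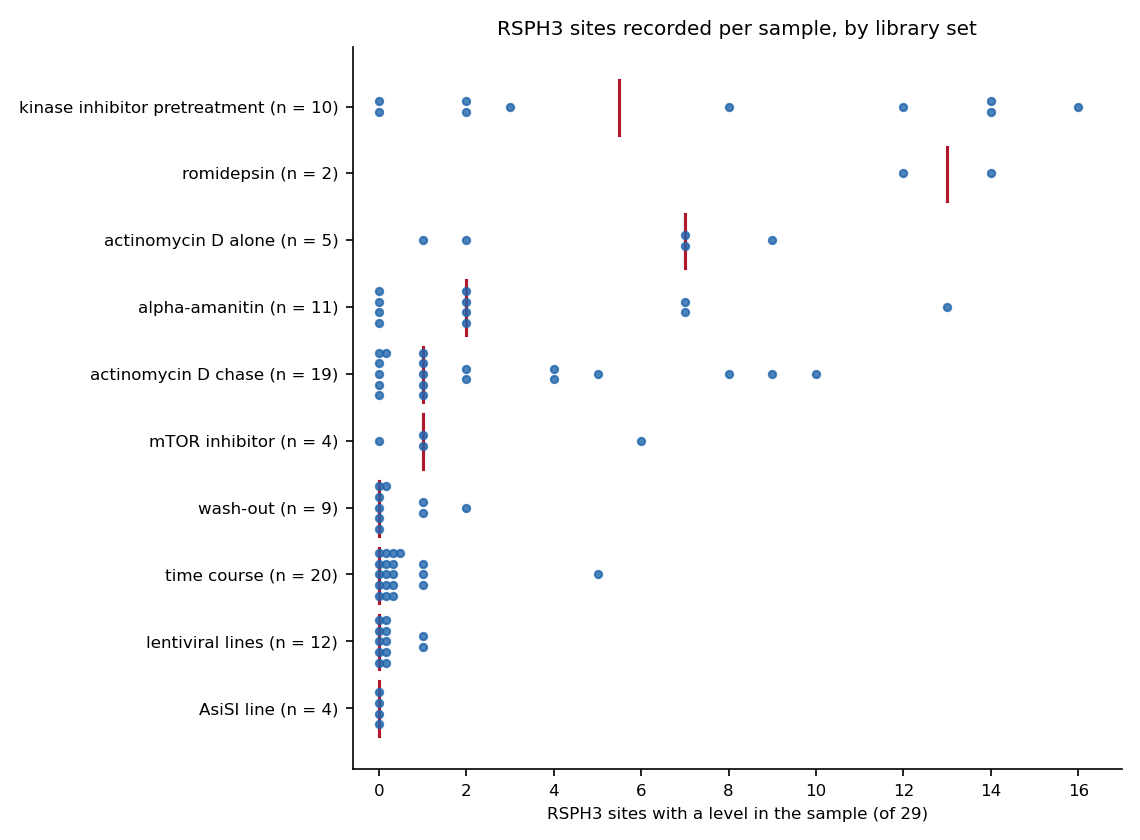
Number of RSPH3 sites with a level in each of the 96 samples, by library set. Each point is a sample, points with equal values are stacked and set slightly to the right, and red lines are set medians. The kinase inhibitor pretreatment, romidepsin and actinomycin D alone sets have medians of 5.5, 13 and 7, and the lowest sets have medians of 0.

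Samples of the same condition in different library sets did not always agree. Romidepsin 6 h had 14 sites in the romidepsin set and 0 in the time course, where the drug name is uncertain. DMSO 6 h had 9 sites in the actinomycin D alone set and 0 in the time course. DMSO 2 h had 1 site in the actinomycin D alone set and 2 in the alpha-amanitin set. These are the 3 conditions with 2 samples, and their members differ in library set, so the spread between replicates within a set is not known. Overlap was partial over all listed sites too. For Romidepsin 6 h 32 sites were shared, of 269 and 102 recorded. For DMSO 6 h 57 were shared, of 173 and 238, and for DMSO 2 h 89, of 287 and 255.

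Upstream sites were recorded in 36 samples and downstream sites in 23, and 12 samples had both, which is 33.3% of the first and 52.2% of the second. The 8 samples with at least 10 sites were all among these 12. For 24 samples all recorded sites were upstream, and for 11 all were downstream. The 15 samples with exactly 1 recorded site are among these and could not have had both groups. Contrasting examples were Etoposide 6 h then actinomycin D 4 h, with 2 upstream and 8 downstream sites, and SN-38 6 h then actinomycin D 0 h, with 8 upstream and 0 downstream sites. In the 12 samples with both, the mean level was higher upstream in 5 and downstream in 7.

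Of the 406 pairs of RSPH3 sites, those with both sites in at least 10 samples had the highest median shares, although pairs of rarer sites reached up to 66.7%. For 34 such pairs within a group the samples with both sites were a median of 41.9% of the samples with either, with a range from 26.9% to 56%. For 32 such pairs between the groups the median was 30.8% and the range from 16.1% to 41.2%. The highest value among these recurrent pairs was 56%, for sites 3217 and 3147, 70 bases apart, which were recorded together in 14 of 25 samples. Sites 3217 and 4110, which are close on the inverted match and 893 bases apart on the transcript, were recorded together in 9 of the 28 samples with either. These shares are descriptions, since all sites of a sample share its library and its depth.

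**Figure D4:**
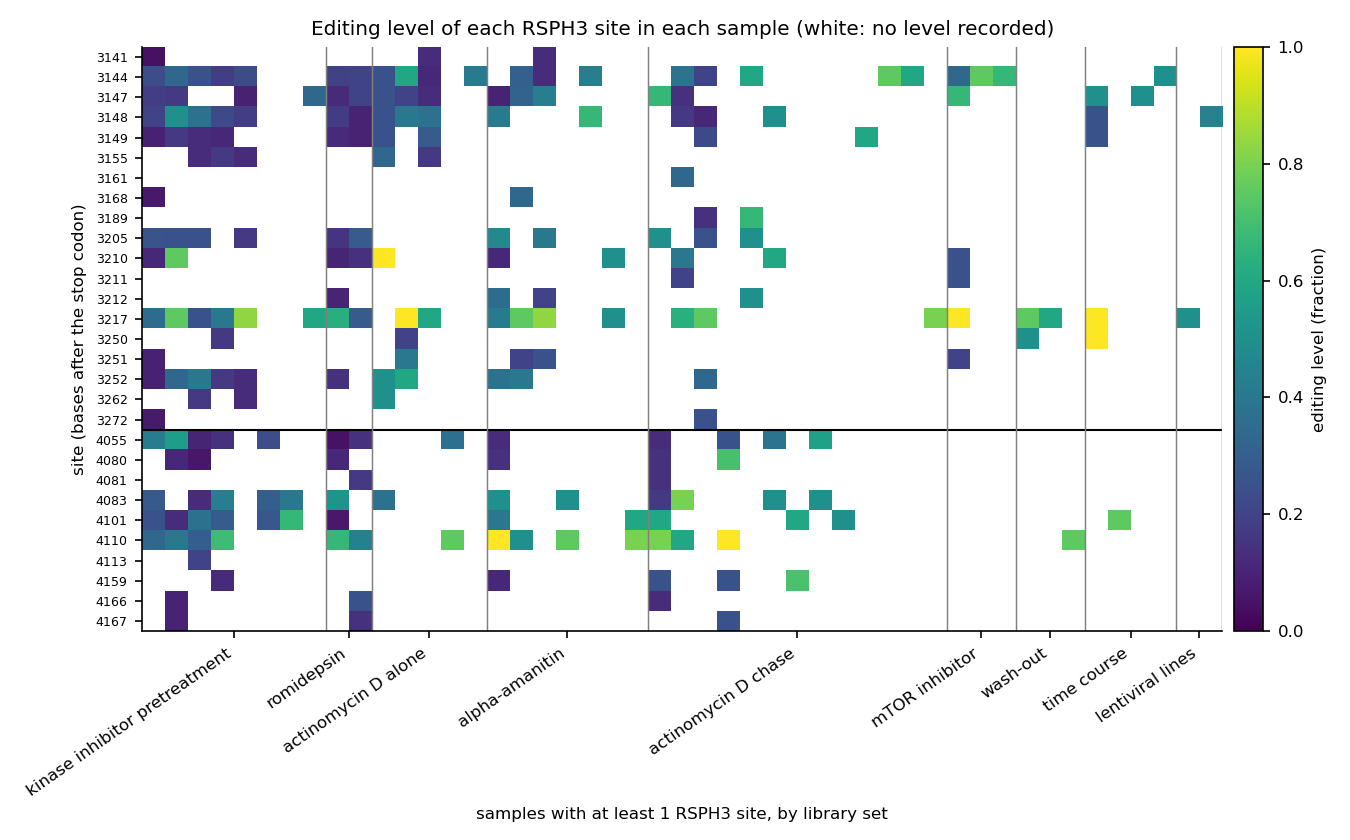
Editing level (color, fraction) of each RSPH3 site, in rows by bases after the stop codon, in each of the 47 samples with at least 1 site, in columns by library set and by falling number of sites; white marks no recorded level and the black line separates the upstream from the downstream group. The rows of sites 3144, 3217 and 4110 are the fullest in their stretches, and 8 samples with at least 10 sites fill both groups.

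Over all 229 levels the median was 0.297, with quartiles of 0.167 and 0.5. The upstream group had a median of 0.286 over 155 levels and the downstream group 0.35 over 74. In comparison, 3770 levels of the other 3′ UTR sites had a median of 0.173, and 22894 levels of all other listed sites 0.333. The other 3′ UTR sites were also grouped by gene, with 29 listed in SMU1, 25 in TEP1 and 23 in DCPS. Within a sample, the mean level over recorded RSPH3 sites was set against the mean over other recorded 3′ UTR sites. The RSPH3 mean averaged 0.483 and the other mean 0.227 over the 47 samples with an RSPH3 site, a difference of 0.256 ± 0.165 (SD), and it was higher in 45 of 47 samples (two-sided sign-flip permutation test, p = 2.00e-05, the smallest that 100000 flips can give). By library set it was higher in 13 of 13 samples of the actinomycin D chase, 7 of 7 of the alpha-amanitin set, 7 of 8 of the kinase inhibitor pretreatment, 5 of 5 of the actinomycin D alone set and 1 of 2 of the romidepsin set. Only recorded levels entered the test, and all samples share the same 29 sites. Its p value therefore does not measure how much 3′ UTRs differ from each other.

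The size of that difference went with the number of sites recorded. Its mean was 0.368 with 1 or 2 RSPH3 sites, 0.183 with 3 to 9 and 0.0318 with at least 10. In the 25 samples with 1 or 2 RSPH3 sites the RSPH3 mean lay between 0.417 and 0.8, and in the 8 samples with at least 10 sites between 0.194 and 0.352, where the other 3′ UTR mean lay between 0.194 and 0.317 and RSPH3 was higher in 6 of 8. With samples of at least 5 RSPH3 sites only, the difference was 0.113 (17 of 19 samples higher, sign-flip permutation p = 4.00e-05), below the value over all 47 samples by more than 1.5 times. It was also smaller with levels above 0.2 only, at 0.109 (37 of 47 samples higher), and, in an alternative chosen after seeing the data, at 0.14 without sites found by all 3 methods (17 of 25 samples higher). Single sites moved in the same way: site 3217 was between 0.25 and 0.75 in 7 samples with at least 10 recorded sites and between 0.5 and 1 in 15 other samples. A site reaches the list of a sample only where a method gives it a level above 0, and how far this sets the high means of samples with few sites was not tested.

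**Figure D5:**
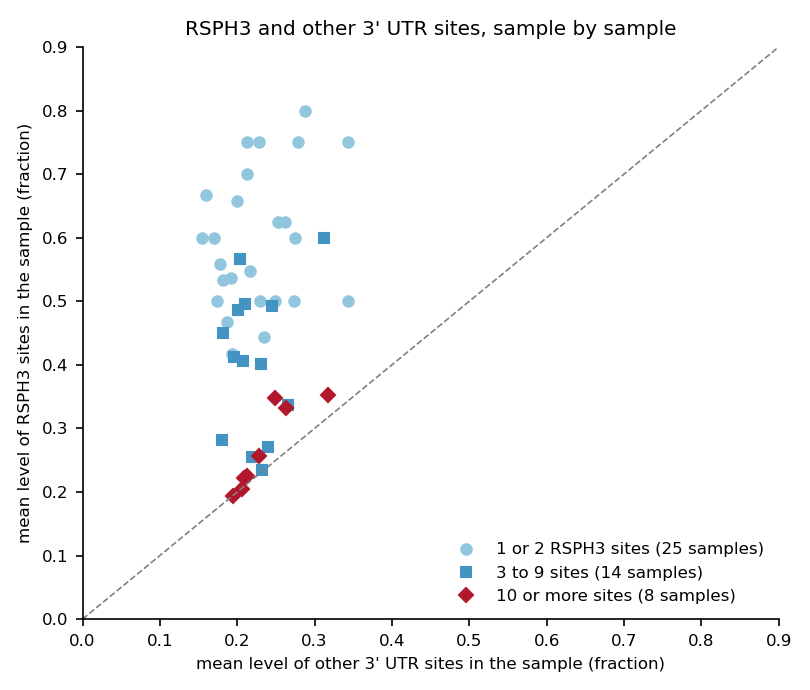
Mean editing level (fraction) of recorded RSPH3 sites against that of other recorded 3′ UTR sites in the 47 samples with an RSPH3 site; the dashed line marks equal means. Samples with 1 or 2 sites lie between 0.417 and 0.8 on the vertical axis, and the 8 samples with 10 or more lie near the line, between 0.194 and 0.352.

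Across the 96 samples the number of RSPH3 sites correlated weakly with the number of other listed sites recorded, with Pearson's r = 0.241 (permutation p = 0.0226) and Spearman's rho = 0.342 (permutation p = 0.00064). After Benjamini-Hochberg adjustment over the 7 groups of samples examined, p was 0.158 for r and 0.00448 for rho. Without the 2 samples farthest from the median number of other sites r was 0.308. Within library sets no correlation passed the test: r was 0.449 in the actinomycin D chase (n = 19), 0.168 in the alpha-amanitin set (n = 11), 0.564 in the kinase inhibitor pretreatment (n = 10), 0.581 in the lentiviral lines (n = 12), -0.11 in the time course (n = 20) and -0.385 in the wash-out set (n = 9), with permutation p values from 0.0609 to 0.801. Without the 16 samples of derivative lines, which had the fewest other sites, r was 0.118 (permutation p = 0.298).

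Then 6 comparisons between conditions were made, with the number of recorded sites and the mean level of recorded sites as measures. The number of sites could be tested in all 6 and the mean level in 3, which gave 9 tests, and 0 passed after Benjamini-Hochberg adjustment (lowest adjusted p = 0.429, exact permutation tests, two-sided), with 0 at an unadjusted p under 0.05. The doxycycline question, whether switching on a transgene or shRNA went with a change, had almost no RSPH3 data. Of 8 samples with doxycycline none had a site, and of 8 samples with water the CSB line at 2 d and the LIG3 line at 8 d had 1 site each, at levels of 0.5 and 0.444 (exact permutation p = 0.467).

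The actinomycin D chase asks what remains after transcription is stopped. At 0 h the numbers of sites were 1 after DMSO, 1 after Talazoparib, 8 after SN-38, 4 after etoposide and 1 after cyclophosphamide. After 6 h of actinomycin D they were 0, 1, 0, 1 and 0 in the same order. The 2 groups overlap only at 1 site. The mean was 3 ± 3.08 at 0 h and 0.4 ± 0.548 at 6 h (SD, n = 5 each), a difference of -2.6 (exact permutation p = 0.0794, adjusted p = 0.429). Without SN-38 6 h then actinomycin D 0 h the difference was -1.35. The other listed sites had medians of 283 at 0 h and 209 at 6 h, but after SN-38, where RSPH3 went from 8 sites to 0, they numbered 329 at 0 h and 382 at 6 h.

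For etoposide against DMSO before actinomycin D, the numbers of sites at 0, 1, 2, 4 and 6 h were 4, 2, 9, 10 and 1 after etoposide and 1, 0, 2, 5 and 0 after DMSO. At each of the 5 times the etoposide sample had more RSPH3 sites, and it also had more other listed sites. The other listed sites numbered 297, 374, 398, 338 and 260 after etoposide and 283, 361, 303, 291 and 202 after DMSO. For RSPH3 sites the difference of means was 3.6 (5.2 ± 4.09 against 1.6 ± 2.07, SD, n = 5 each, exact permutation p = 0.167, adjusted p = 0.5). With labels permuted within each time the exact permutation p was 0.0625, the smallest that design allows. Before alpha-amanitin the order was not the same: at 0, 2, 4 and 6 h the numbers were 0, 7, 0 and 0 after etoposide and 7, 0, 2 and 13 after DMSO, a difference of -3.75 (1.75 ± 3.5 against 5.5 ± 5.8, SD, n = 4 each, exact permutation p = 0.371, adjusted p = 0.836). Without DMSO 6 h then alpha-amanitin 6 h this difference was -1.25. Other listed sites in the samples before alpha-amanitin had medians of 191 after etoposide and 222 after DMSO. The chase samples at 0 h and 6 h after DMSO or etoposide also enter the comparison of actinomycin D times.

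The mean level of recorded sites was 0.75 and 0.8 in the 2 samples with a site after 6 h of actinomycin D and between 0.282 and 0.6 in the 5 samples at 0 h. These ranges do not overlap, and the exact permutation p of 0.0952 is the smallest that the numbers allow, so the test could not pass. Each of the 2 samples at 6 h rests on 1 site, and with 0 for unrecorded sites the difference turned from 0.265 to -0.0322. The mean level lay between 0.352 and 0.75 in 5 etoposide samples and between 0.492 and 0.657 in 3 DMSO samples before actinomycin D (exact permutation p = 0.607).

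In the time course, RSPH3 sites were almost absent. Imatinib at 6 h had 1 site, and the other 4 imatinib samples and all 5 DMSO samples had none (exact permutation p = 1). Romidepsin 36 h had 5 sites, and Etoposide 36 h, Etoposide 12 h and Imatinib 6 h had 1 each, so 2 of 8 late samples (36 and 48 h) and 2 of 8 early samples (6 and 12 h) had a site (difference 0.5, exact permutation p = 0.877). Other listed sites numbered a median of 515 in the late samples and 158 in the early ones, while the RSPH3 medians were 0 in both.

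The kinase inhibitor pretreatment set held the sample with the most RSPH3 sites, 16. Its next samples had 14, as did Romidepsin 6 h of the romidepsin set. Of the samples pretreated with AZ-20, KU-60019 and NU7441, the one given Talazoparib for 3 h had 8 sites, and those given a drug for 6 h had 12 with SN-38, 16 with etoposide and 14 with Mirin. After DMSO the same drugs for the same time gave 3, 0, 14 and 2 sites, so the inhibitor sample had more sites for each of the 4 drugs, by 2 sites with etoposide. The mean levels lay between 0.194 and 0.332 in the 4 inhibitor samples and between 0.222 and 0.467 in the 3 DMSO samples with a site. Other listed sites had medians of 341 and 352. This comparison was chosen after its values had been seen, and no test was run on it.

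Of 12 other genes of the radial spokes and their base (RSPH1, RSPH4A, RSPH6A, RSPH9, RSPH10B, RSPH14, DNAJB13, ROPN1L, NME5, CFAP91, CFAP206 and CFAP251) none had a listed site. Over all 20020 protein-coding genes 6.27% had a listed site on their strand, so 0 of 12 is near that background, and the expression of these genes was not analysed here. Among 92 other genes with at least 10 listed sites, those whose number of recorded sites per sample ranked most like that of RSPH3 over the 96 samples were KCTD13 (17 sites, Spearman's rho = 0.493), FIRRE (55 sites, rho = 0.394) and, with the same 13 sites on overlapping annotations, ENSG00000269026 and ZNF551 (rho = 0.373). The median rho over the 92 genes was 0.0859. KCTD13 had a site in 51 samples, and 37 of these were among the 47 with an RSPH3 site. These values are descriptions over samples that share libraries and depth.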

How the data were processed

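Total RNA of K562 cells was sequenced with strand-specific libraries. Per the submitters' notes and the study's methods, the authors aligned reads to GRCh38 with TopHat2 2.1.1, removed duplicates with Picard 2.0.1, sorted with SAMtools 1.9 and predicted sites sample by sample with SPRINT, REDItools and RED-ML. Common and K562 variants, annotated repeats and regions of low mappability were removed, and sites with a maximum above 0.2 over 130 samples and at least 2 samples were kept, then selected by method and element. The deposited values are editing levels as a fraction, which the authors took as the mean of the levels from each method with a call; 34 sample columns were not used because no sample label given here matched them. The 96 columns used match sample labels, and 57 sites found by Sanger sequencing only carry no level.

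The members, comparisons and gene list were chosen with earlier results of these data known. Gene structure came from GENCODE release 44, and the listed base was A for all 29 sites. Differences were tested by exact permutation of sample labels, as the smaller tail doubled, paired differences by 100000 sign flips and correlations by 100000 permutations, with Benjamini-Hochberg adjustment; tests were checked on simulated data. Mean levels used recorded sites of samples with at least 1. Sites named were the 5 recorded in most samples, the 3 highest and 3 lowest medians among sites in at least 5 samples, and both ends; site 4055, the pairs compared within samples and the kinase inhibitor comparison were chosen after their values had been seen. Other genes named were the 3 with the highest rho among genes with at least 10 listed sites. Overlapping genes with the same sites count as 1 in that choice. They count separately among the 92 genes and in the median rho. Inverted matches came from blastn 2.17.0 (word size 7, E-value up to 1e-10) and the fold from RNAfold 2.7.2. Python 3.11.15, numpy 2.4.6, scipy 1.17.1 and pandas 2.3.3 were used. The labels name a NovaSeq and the study's methods a HiSeq instrument.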

Additional observations from a re-analysis of the deposited data

Results flagged for a closer look

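By Dixon's criterion, 3 of 15 groups and measures had a sample far from the others. The criterion sets apart about 1 in 20 groups by chance for normally distributed values. That rate does not hold for these 3 groups, whose counts are mostly 0. Where all samples but 1 have 0 sites, the gap equals the whole range and the sample is always set apart. The 3 results are therefore descriptions. Etoposide 6 h then Alpha Amanitin 2 h had 7 RSPH3 sites, while the other 3 etoposide samples of that set had 0. Imatinib 6 h had 1 site, while the other 4 imatinib samples of the time course had 0. Romidepsin 36 h, whose drug name is uncertain, had 5 sites, while the other 7 late samples of the time course had at most 1.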

How the results depend on the processing

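A level of 0 cannot be told from missing coverage, the depth per site is unknown, and nearly every condition has 1 sample, so editing, coverage and the amount of RSPH3 RNA cannot be told apart in a difference of recorded sites, and no limit of detection could be set. The difference in level between RSPH3 and other 3′ UTR sites kept its direction and passed its test under all 15 alternatives run. All 15 used recorded levels only, in samples with an RSPH3 site, so they cannot show how unrecorded sites bear on the difference. An alternative with 0 for unrecorded sites was not run for it. Most of the 15 left out 1 library set, and the AsiSI line set held no sample with a site. The difference ranged from 0.109 with levels above 0.2 to 0.29 with medians within a sample, and from 0.231 to 0.288 with a library set left out. Without sites detected by all 3 methods, an alternative chosen after seeing the data, it was 0.14 in 25 samples. In smaller groups of samples, where no test was run, the difference nearly vanished. Its mean was 0.0318 in the 8 samples with at least 10 RSPH3 sites and 0.00523 in the 2 samples of the romidepsin set.

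None of the 9 tests between conditions passed under any alternative run, and the direction was turned in 5 cases. With 0 for unrecorded sites the difference in mean level was -0.0322 for actinomycin D at 6 h against 0 h, 0.0475 for etoposide against DMSO before actinomycin D and 0.0097 for late against early samples; for etoposide it was 0.00513 with levels above 0.2. The difference in sites between late and early samples ran from -0.107, without Romidepsin 36 h, to 0.607 over the samples left out in turn. The causes were not tested, except that a mean with 0 for unrecorded sites also counts how many sites are recorded. The correlation of RSPH3 sites with other listed sites no longer passed within library sets, where there are fewer samples. Pearson's r and Spearman's rho were 0.449 and 0.425 in the actinomycin D chase, 0.168 and 0.272 in the alpha-amanitin set, 0.564 and 0.416 in the kinase inhibitor pretreatment, 0.581 and 0.454 in the lentiviral lines, -0.11 and -0.0798 in the time course and -0.385 and -0.428 in the wash-out set. Without the derivative lines they were 0.118 and 0.183. Mean level was not compared for doxycycline, etoposide before alpha-amanitin and imatinib, where a group had fewer than 2 samples with a site, nor within drugs for late against early samples. Using all listed sites of the gene gives the same 29 sites. No paired analysis was possible by replicate number because the conditions compared have 1 sample each per time or drug; labels were permuted within line and day, drug or time instead, where 6 of 8 tests could not reach 0.05 and so say nothing about stability, and the exact permutation p of the other 2 was 0.5 for doxycycline and 0.917 for late against early samples.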
